A study of Mus musculus with 29 samples.

Results

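The core pluripotency factors examined here are 6 genes, Pou5f1, Sox2, Nanog, Utf1, Sall4 and Lin28a. Their probes were found by matching the RefSeq accession that the scanner files give each probe to a gene symbol. This gave 9 probes of 55681 on the array, or 6 genes of 20956 with a symbol. Pou5f1, Sox2, Utf1 and Lin28a have 1 probe each, Nanog has 2 and Sall4 has 3, and each probe is described apart. All 9 passed the filter on dim probes, which keeps a probe if some group has it well above background on each of its arrays.

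Pou5f1 (Oct4) and Sox2 encode transcription factors that bind DNA side by side at a joint site and together hold stem cells of the early embryo in the pluripotent state. Nanog, a homeobox factor, and Sall4, a zinc finger factor that binds the NuRD chromatin complex, belong to the same network, and Utf1 encodes a chromatin-bound protein of pluripotent cells that is a known target of the joint site. Lin28a differs from the others in kind, since it encodes an RNA-binding protein that blocks maturation of let-7 microRNAs, and it is known to be low in naive stem cells and to rise as they leave that state.

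The study measured Cy3-labelled RNA on 29 single-colour arrays in 9 groups. In the first array set, ESC (3 arrays) are mouse HRHnG embryonic stem cells, which carry a double reporter, in 2i with LIF, a pair of kinase inhibitors and a cytokine that keep cells naive. Diff (3 arrays) are these cells given Activin, CHIRON (a GSK3 inhibitor) and LIF for 7 to 8 days. Mid (3) and Late (3) are the cultures passaged from Diff, called nEnd, at passages 7 to 10 and 14 to 15, each replicate from its own differentiation, and XEN (3) are extraembryonic endoderm cells labelled Xen, their own line. In the second set, 2iL (3) and NACL (4) come from HVMC, E14 and E14-NanogGFP stem cells. They were kept in 2i with LIF (2iL) or in N2B27 with Activin, CHIRON and LIF (NACL) for 3 passages or more. EpiSC (3) are epiblast stem cells and ADE (4) the same cells driven for 4 days towards anterior definitive endoderm, both labelled HRHNG. The 3 2iL arrays are 1 of each line, and NACL holds HVMC 2 times and the other lines once each, so their spread includes that between lines. What separates the replicates of ESC, Diff, XEN, EpiSC and ADE is not stated, so the spread between these samples, on which p-values rest in part, may be technical.

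A level below is the log2 background-corrected signal relative to the 75th percentile of the same array, which lay at 151.8 to 366.0 intensity units. The share of probes well above background ran from 49.2% to 79.7% over the arrays, and 0 were saturated. Differences are log2 differences ± standard error (SE) from limma over all 36730 probes tested, and called means an adjusted p (Benjamini-Hochberg) under 0.05. Intervals of a difference are 95% intervals from the SE by the normal approximation. The SE of a probe pools its spread within all 9 groups, so neither it nor the p-value rests on the compared groups alone. For Sox2 the SD was 2.23 in Mid and 1.61 in Diff, against 0.04 (ESC) to 0.85 (ADE) in the other groups. Sox2 intervals between other groups thus also carry the spread of Mid and Diff. Levels of different probes were not compared. The groups carried markers of their labels, though not those alone. The summed relative signal of 9 primitive endoderm markers was 883 to 1511 in Diff, Mid, Late and XEN and 15.3 to 51.0 in ESC, 2iL, NACL and EpiSC. In ADE it was 159 to 224. That of 7 anterior definitive endoderm markers was 269 to 381 in ADE and 7.4 to 9.0 in EpiSC. It was 33.5 to 59.0 in Diff and 63.9 to 96.1 in Mid, Late and XEN. The sum of 9 primed epiblast markers was higher in ADE (376 to 524) than in EpiSC (137 to 144). In these bulk samples, fewer cells with a transcript and less transcript per cell cannot be told apart.

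Promoters are shown for Nanog, Sox2 and Pou5f1, textbook regulators of each other through Sox and Pou sites, and for Lin28a, which moved against them. The 250 bases before an annotated start were read from RefSeq's table for GRCm38.p6, in which 5 of the 6 genes had a window; Sall4 did not. These letters were searched on both strands: the octamer ATGCAAAT, the Sox core CATTGT and the joint Sox/Pou site TTGTNATGC, whose first letters overlap the Sox core. Capitals mark the bases of any match. The Nanog window lies at chr6:122707239-122707488 (plus strand), the Sox2 window at chr3:34649745-34649994 (plus strand), the Pou5f1 window at chr17:35505782-35506031 (plus strand) and the Lin28a window at chr4:134018817-134019066 (minus strand).
Nanog: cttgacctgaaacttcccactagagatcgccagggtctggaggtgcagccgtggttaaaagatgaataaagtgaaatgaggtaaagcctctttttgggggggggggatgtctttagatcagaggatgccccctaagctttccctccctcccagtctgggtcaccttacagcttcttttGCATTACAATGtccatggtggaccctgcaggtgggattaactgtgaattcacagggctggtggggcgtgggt
Sox2: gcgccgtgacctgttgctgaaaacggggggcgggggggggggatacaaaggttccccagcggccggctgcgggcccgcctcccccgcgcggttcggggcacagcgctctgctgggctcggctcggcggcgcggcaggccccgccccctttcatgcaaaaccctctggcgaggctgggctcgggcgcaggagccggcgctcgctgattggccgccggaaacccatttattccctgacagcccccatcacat
Pou5f1: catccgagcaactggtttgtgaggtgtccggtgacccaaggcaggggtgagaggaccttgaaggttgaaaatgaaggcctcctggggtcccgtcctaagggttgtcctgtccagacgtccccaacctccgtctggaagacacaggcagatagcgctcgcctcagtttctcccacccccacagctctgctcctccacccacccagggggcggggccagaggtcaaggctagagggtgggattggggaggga
Lin28a: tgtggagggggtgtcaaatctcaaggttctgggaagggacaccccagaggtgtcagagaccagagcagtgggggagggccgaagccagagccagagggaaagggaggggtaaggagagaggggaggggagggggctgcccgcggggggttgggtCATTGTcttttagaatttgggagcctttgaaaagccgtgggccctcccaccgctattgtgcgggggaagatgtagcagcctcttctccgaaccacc

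Nanog held the joint site, 72 to 64 bases before its start on the opposite strand, overlapping a Sox core at 67 to 62 bases. A joint site stood in 0.648% of 32851 windows of this length, and the second annotated Nanog window, which overlaps the first, held the same one. Lin28a held a Sox core at 96 to 91 bases before its start, a match that 10.7% of all windows have. Neither the Sox2 window nor this Pou5f1 window nor that of Utf1 held any of the 3, and a second Pou5f1 window held a Sox core at 158 to 153 bases. The octamer was in 0 of the 7 windows of these genes and in 1.60% of all. Matches are letters in a window, not shown to be bound here.

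In naive stem cells the core factors were high on every array. Pou5f1 stood at 5.77, 5.71 and 5.75 in ESC and at 5.35, 5.63 and 5.12 in 2iL. Sox2 stood at 3.53, 3.45 and 3.49 in ESC and at 3.78, 3.45 and 3.47 in 2iL. Nanog probe A_55_P2007703 read 4.16, 4.06 and 3.85 in ESC and 3.65, 2.32 and 3.26 in 2iL. Lin28a, in contrast, was lowest of all groups in ESC, at 1.13, 0.57 and 0.62, and next lowest in 2iL, at 2.27, 3.28 and 3.06, though well above background on every array.

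ESC minus 2iL sets the same medium side by side across both array sets, so array set, line and scan cannot be told apart. Of the 9 probes 1 was called, where 6.79% of all probes were. That probe was Lin28a, lower in ESC by 4.27-fold (log2 difference -2.09 ± 0.29, limma adjusted p = 0.00026). For Pou5f1 and Sox2 the intervals of the difference were -0.47 to 1.24 and -1.52 to 1.37, and for Nanog probe A_55_P2007703 -0.56 to 2.44.

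**Figure D1:**
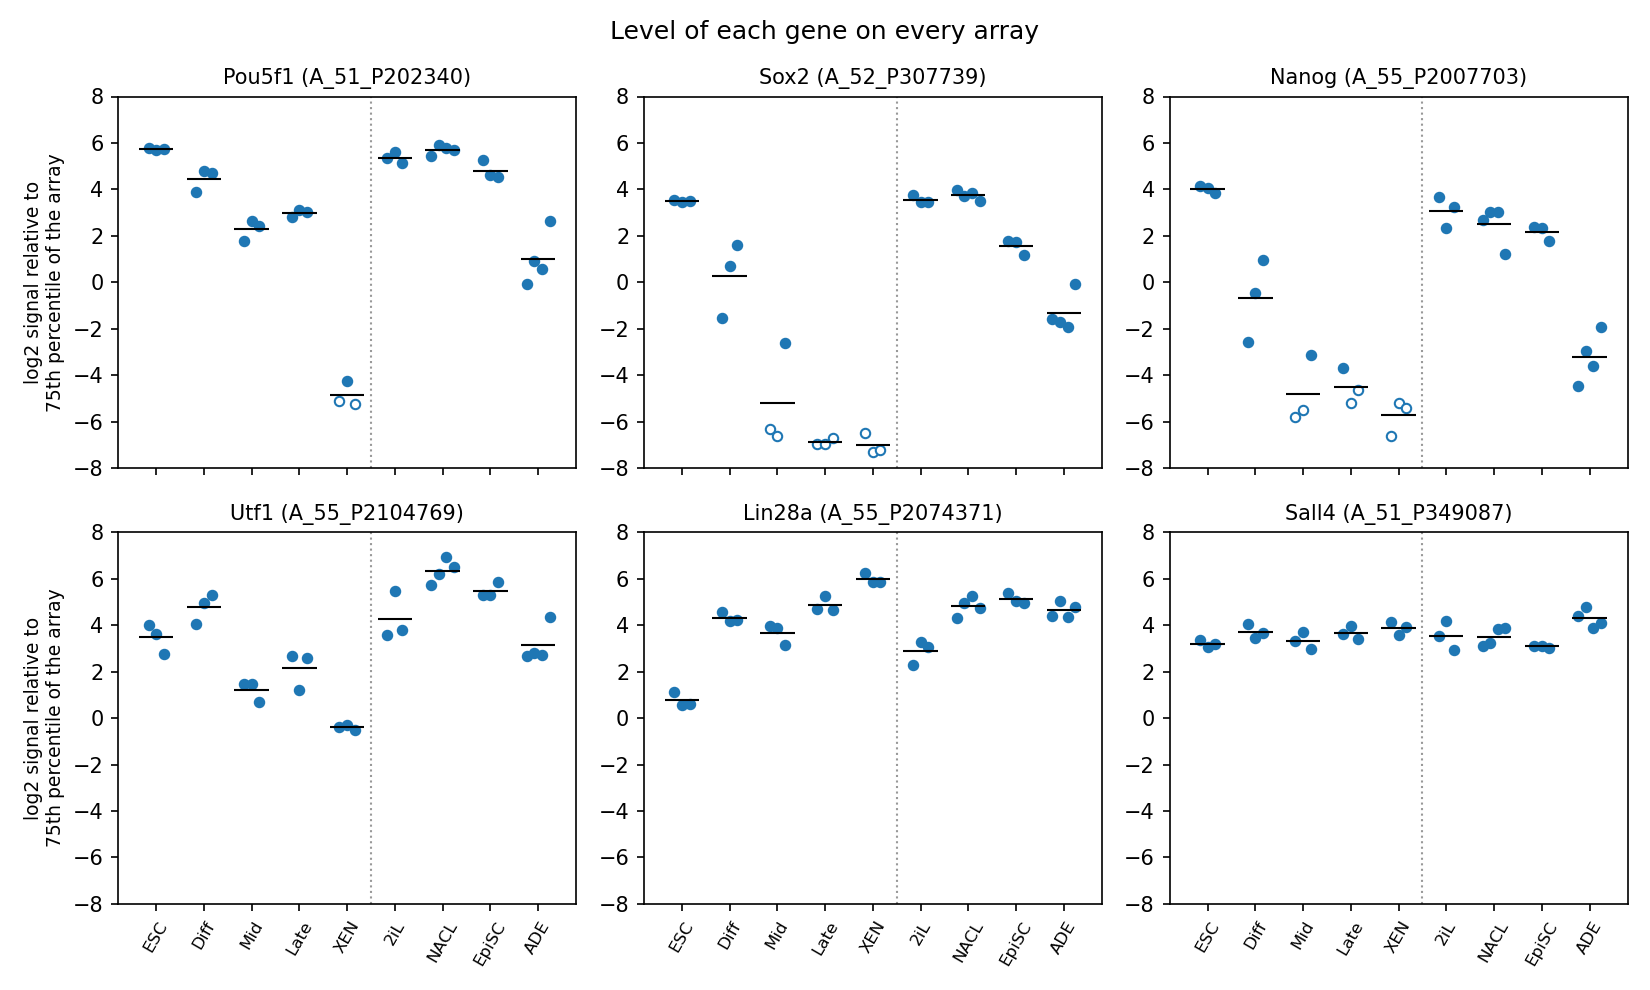
Level of the brightest probe of each of the 6 genes on all 29 arrays (y axis: log2 signal relative to the 75th percentile of the array), by group; filled points are well above background, open points are not, black bars are group means, and the dotted line parts both array sets. Sox2 and Nanog (probe A_55_P2007703) fall from ESC through Diff to background on most nEnd arrays, Pou5f1 stays at 1.79 or more on every Mid and Late array, Lin28a is lowest in ESC, and the Sall4 probe stays between 2.94 and 4.78.

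Diff minus ESC sets cells given Activin, CHIRON and LIF against naive stem cells of the same line. Medium and days of culture were not varied apart, so the part of each was not tested. Sox2 and Nanog probe A_55_P2007703 fell, Lin28a rose, and Pou5f1 was lower by a smaller amount that only some settings called. Of the 9 probes 4 were called, 1 higher and 3 lower, where 34% of all probes were.

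Nanog probe A_55_P2007703 read -2.57, -0.47 and 0.98 in Diff. It fell by 4.71 ± 0.76 (SE, n = 3 and 3; limma adjusted p = 3.7e-05), which is 26.2-fold. Every Diff array lay below every ESC array, and the Diff arrays were far apart, with an SD of 1.79 against 0.16 in ESC. Sox2, at -1.53, 0.70 and 1.60 in Diff, fell by 3.23 ± 0.74 (adjusted p = 0.0013), or 9.38-fold, with an SD of 1.61 in Diff against 0.04. Diff 1 was the lowest array for both genes. On the same array Pou5f1 was lowest as well, the summed signal of the 9 primitive endoderm markers was 1405 against 883 to 899 on the other Diff arrays, and that of 10 naive factors was 124.8 against 147.9 to 212.2; the part of these in the spread was not tested. Without Diff 1 the falls were -3.77 for this Nanog probe (adjusted p = 0.00052) and -2.34 for Sox2 (adjusted p = 0.018). With first-day scans alone they were -5.63 and -3.90.

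Pou5f1 read 3.88, 4.79 and 4.72 in Diff, each below all ESC arrays. The fall of 1.28 ± 0.44 was called in limma's fit (adjusted p = 0.025). It was not called with slide as a block (-0.95, adjusted p = 0.17), with arrays centred on their median (-0.86, adjusted p = 0.18), on the first scan day alone (adjusted p = 0.075), or without Diff 1 (adjusted p = 0.13) or any 1 ESC array (adjusted p = 0.054 to 0.061). Utf1 was not called. It read 4.03, 4.95 and 5.31 in Diff against 4.03, 3.63 and 2.78 in ESC, a difference of 1.29 ± 0.51 (adjusted p = 0.057), and 5 of 18 settings called it higher, at up to 1.70.

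Lin28a moved the other way. It read 4.55, 4.20 and 4.22 in Diff and rose by 3.55 ± 0.29 (adjusted p = 2.2e-09), or 11.7-fold, with no overlap between the groups. It was called in all 18 settings, at 3.37 to 3.97. None of the 3 Sall4 probes was called, with intervals of -0.40 to 0.39 for A_51_P145260, -0.07 to 1.07 for A_51_P349087 and -0.78 to 0.84 for A_55_P2173546.

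The steps Mid minus Diff and Late minus Mid ask what passaging as nEnd did. Sox2 and Nanog probe A_55_P2007703 went to background on most nEnd arrays, while the other Nanog probe did not, Pou5f1 and Utf1 fell from Diff to Mid but stayed well above background on all 6, and Lin28a was not called between Diff and Mid. In Mid minus Diff 5 of 9 probes were called, 1 higher and 4 lower, where 22.1% of all were.

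Sox2 in Mid was at background on 2 of 3 arrays, -6.34 and -6.62, and measured on Mid 3 at -2.62. In Late it was not well above background on any array. Its fall from Diff to Mid was 5.45 ± 0.74 (SE, n = 3 and 3; adjusted p = 1.2e-05), and -6.74 without Mid 3. Nanog probe A_55_P2007703 was likewise well above background only on Mid 3, at -3.15, and on Late 1, at -3.71, and fell by 4.13 ± 0.76 from Diff to Mid (adjusted p = 0.00042; not called on the arrays of both groups alone, adjusted p = 0.051). Mid 3, like 1 array each of ESC, Diff and XEN, was scanned on the second day, and its 9 primitive endoderm markers summed to 902 against 1118 to 1212 on Mid 1 and Mid 2; the part of either was not tested. Near background a difference depends on the correction, and with normexp the falls were -2.41 for Sox2 and -1.67 for this Nanog probe, both still called.

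Pou5f1 stood at 1.79, 2.64 and 2.41 in Mid and at 2.81, 3.09 and 3.01 in Late. It fell by 2.18 ± 0.44 from Diff to Mid (limma adjusted p = 0.00085), called in all settings tried. Each Late array lay above each Mid array, yet the difference of 0.69 ± 0.44 was not called (adjusted p = 0.46; interval -0.16 to 1.54). Against ESC, the mean of Mid and Late was 8.69-fold lower in Pou5f1 (log2 difference -3.12 ± 0.38, adjusted p = 3.1e-07).

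Utf1 fell by 3.56 ± 0.51 from Diff to Mid (adjusted p = 2.7e-05), to 1.46, 1.48 and 0.68, and read 2.69, 1.21 and 2.60 in Late. Lin28a read 3.95, 3.89 and 3.17 in Mid and 4.69, 5.24 and 4.65 in Late. In Late minus Mid it was the only 1 of 9 probes called, where 3.22% of all were, at 1.19 ± 0.29 (adjusted p = 0.025). That call was lost without Mid 3 (0.94, adjusted p = 0.089), without any 1 Late array, with slide as a block (adjusted p = 0.051), on the first scan day alone, with median centring and on the arrays of both groups alone.

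Over the whole conversion, nEnd minus ESC called 5 of 9 probes, 1 higher and 4 lower, where 43.5% of all were. Sox2 fell by 9.53 ± 0.64 and Nanog probe A_55_P2007703 by 8.69 ± 0.66, with 1 and 2 of 6 nEnd arrays well above background, so these sizes rest on signals near the floor (-5.23 and -5.52 with normexp). Utf1 fell by 1.79 ± 0.45 (adjusted p = 0.002), and Lin28a rose by 3.49 ± 0.25 (adjusted p = 7.6e-11). The 3 Sall4 probes ranged from -0.16 to 0.29 and were not called.

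**Figure D2:**
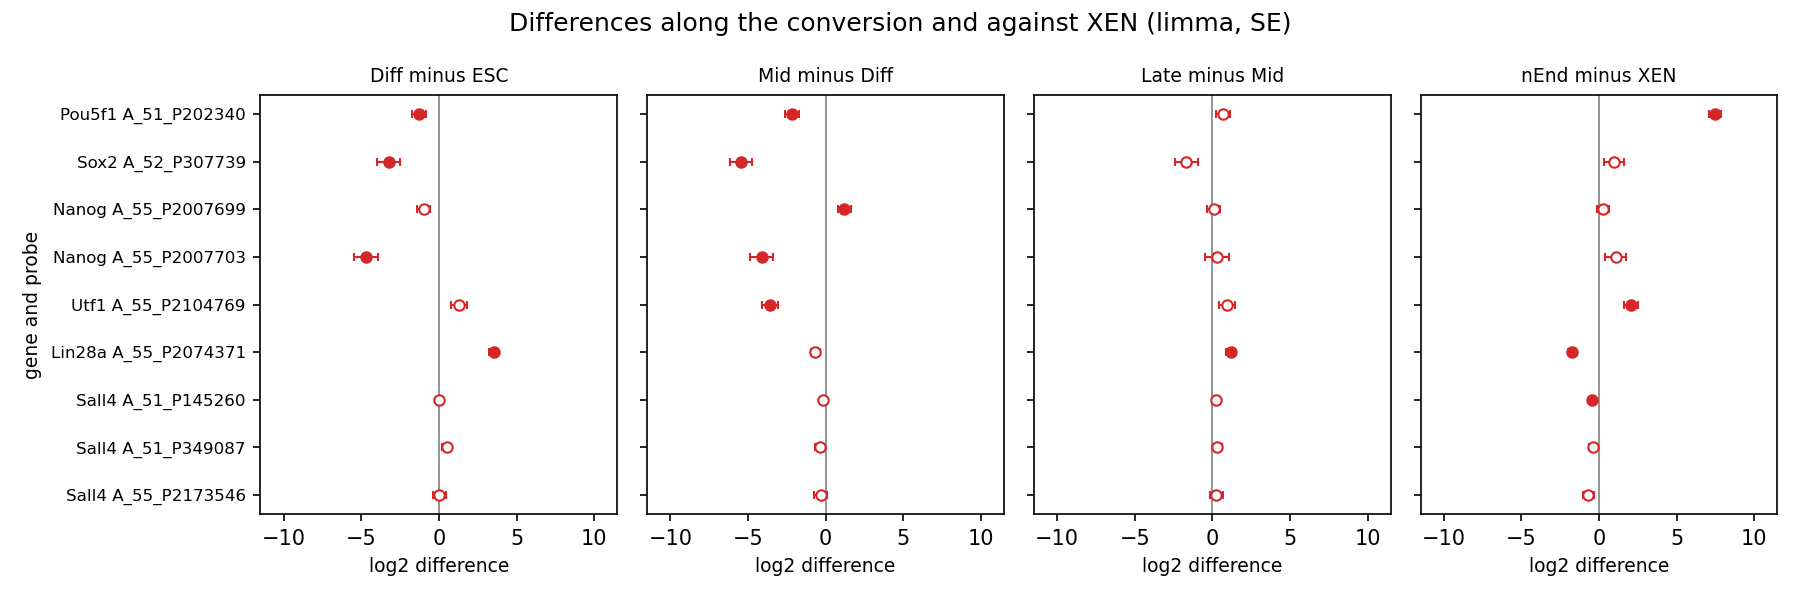
Log2 difference (x axis) with its SE for each of the 9 probes (y axis) in 4 comparisons of the first array set; filled points were called by limma. The large falls of Sox2 and Nanog A_55_P2007703 in the first 2 panels, the called Lin28a probe alone in the third, and Pou5f1 at 7.49 above XEN in the last are the main features.

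The comparison nEnd minus XEN asks how the passaged endoderm differs in these factors from an established extraembryonic endoderm line. Pou5f1 and Utf1 were higher in nEnd, Lin28a was lower, and Sox2 and Nanog probe A_55_P2007703 were near or below background on both sides. Of 9 probes 4 were called, 2 higher and 2 lower, where 31.3% of all were. The lines differ too, so line and culture cannot be told apart.

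Pou5f1 in XEN read -5.11, -4.27 and -5.23, well above background on 1 of 3 arrays. All 6 nEnd arrays were higher, by 7.49 ± 0.38 on the log2 scale (limma adjusted p = 3.8e-13), or 4.32 with normexp. Utf1, at -0.37, -0.30 and -0.51 in XEN, was 4.24-fold higher in nEnd (2.08 ± 0.45, adjusted p = 0.0008). Lin28a had its highest levels of all groups in XEN, at 6.26, 5.86 and 5.85, and nEnd was 3.32-fold lower (-1.73 ± 0.25, adjusted p = 9.8e-06). Sall4 probe A_51_P145260 was called lower at -0.47 ± 0.17 (adjusted p = 0.044), with arrays overlapping between the groups, and 9 of 19 settings called it. Sox2 in XEN was not well above background on any array, at -6.49, -7.30 and -7.24, and neither was Nanog probe A_55_P2007703.

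XEN minus ESC called 5 of 9 probes, 1 higher and 4 lower, where 41.7% of all were. ESC exceeded XEN at least 324-fold in Sox2 and at least 469-fold in Nanog probe A_55_P2007703, taking each XEN array at its lowest signal well above background or at the probe's own if higher. These folds depend on the processing. Over the settings tried the log2 difference ran from -10.76 to -5.34 for Sox2 and from -10.03 to -5.59 for this Nanog probe, called in each. Nanog probe A_55_P2007699 was not called there (0.03 ± 0.42). Pou5f1 was called lower in XEN, but only 1 of 3 XEN arrays was well above background, so the size rests on signals near the floor: -10.61 ± 0.44 here, -8.24 when fitted to the authors' deposited values and -7.31 with normexp. Utf1 was lower by 3.88 ± 0.51 (adjusted p = 1.3e-06). Lin28a was 37.2-fold higher in XEN (5.22 ± 0.29, adjusted p = 1.4e-12). No Sall4 probe was called, at 0.41 to 0.68, but with median centring, which raised the median of all probes in this comparison from -0.23 to 0.46, all 3 were higher, at 1.11 to 1.37.

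NACL minus 2iL sets stem cells kept in Activin, CHIRON and LIF against those in 2i. Pou5f1, Sox2 and both Nanog probes were not called, and Lin28a and Utf1 rose. Of 9 probes 2 were called, both higher, where 4.53% of all were. Pou5f1 read 5.46, 5.90, 5.78 and 5.68 in NACL and Sox2 read 3.98, 3.70, 3.85 and 3.50. The interval of the difference was -0.46 to 1.14 for Pou5f1, -1.15 to 1.55 for Sox2 and -1.99 to 0.81 for Nanog probe A_55_P2007703, whose lowest array was NACL 4 at 1.23 against 2.68 to 3.04 on the others.

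Lin28a in NACL read 4.29, 4.96, 5.27 and 4.76, above every 2iL array, and rose by 1.95 ± 0.27 (SE, n = 4 and 3; limma adjusted p = 8.8e-05), or 3.87-fold. Utf1 read 5.74, 6.19, 6.92 and 6.52 against 3.56, 5.46 and 3.81 in 2iL and rose by 2.06 ± 0.48 (adjusted p = 0.012), or 4.18-fold. Both were called with cell line as a replicate block as well. The Utf1 call was lost without 2iL 1 (adjusted p = 0.10), without 2iL 3 (adjusted p = 0.075) and on the arrays of both groups alone (adjusted p = 0.13). Of 5 fibroblast markers, 2 to 4 were well above background in NACL and their summed signal was 2.2 to 16.0, against 1.3 to 2.0 in 2iL; its part in these values was not tested.

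EpiSC minus 2iL sets primed against naive cells. Sox2 was lower and Lin28a higher in EpiSC, while Pou5f1 and both Nanog probes were not called. Of 9 probes 2 were called, 1 in each direction, where 30.8% of all were. Lin28a read 5.38, 5.05 and 4.95 and was 4.78-fold higher than in 2iL (2.26 ± 0.29, limma adjusted p = 1.6e-06). Sox2 read 1.77, 1.74 and 1.18, every array below all 2iL and NACL arrays, and was lower by 2.00 ± 0.74 (adjusted p = 0.042). That call was lost when any 1 array of either group was left out (adjusted p = 0.070 to 0.12), with median centring (adjusted p = 0.079), with quantile normalization (adjusted p = 0.059) and without the filter on dim probes (adjusted p = 0.065). In all, 7 of 16 settings called it, at a limma adjusted p down to 0.0002, and the difference ran only from -2.10 to -1.81.

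Pou5f1 in EpiSC read 5.26, 4.62 and 4.54 and overlapped 2iL, with an interval of -1.41 to 0.30 for the difference, and for Nanog probe A_55_P2007703, at 2.39, 2.34 and 1.76, the interval was -2.41 to 0.58. Utf1 read 5.29, 5.29 and 5.88 and was not called (1.21 ± 0.51, adjusted p = 0.081), though 4 of 16 settings called it higher. Against NACL, Sox2 alone of the 9 probes was called, where 30.4% of all were, lower in EpiSC by 2.20 ± 0.69 (adjusted p = 0.017; adjusted p = 0.070 without EpiSC 3). EpiSC arrays had 3 to 5 of 6 neural markers well above background, at a summed signal of 36.0 to 53.0, against 1.9 to 4.8 in 2iL, and 5 fibroblast markers at 6.3 to 10.2; their part in these differences was not tested.

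ADE minus EpiSC asks what 4 days of definitive endoderm induction did to the same factors. Pou5f1, Nanog probe A_55_P2007703, Sox2 and Utf1 fell, all 3 Sall4 probes rose, and Lin28a was not called. Of 9 probes 7 were called, 3 higher and 4 lower, where 26.7% of all were. Markers of other cells moved too: the summed signal of 6 neural markers was 36.0 to 53.0 in EpiSC and 3.6 to 5.8 in ADE, with 2 of 4 tested called lower. That of 5 fibroblast markers was 6.3 to 10.2 against 0.24 to 2.7, with 3 of 4 called lower. Their part in these changes was not tested.

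Pou5f1 read -0.09, 0.91, 0.56 and 2.64 in ADE. It fell by 3.80 ± 0.41 (SE, n = 4 and 3; limma adjusted p = 2.2e-07), or 13.9-fold, with no overlap. Nanog probe A_55_P2007703, at -4.45, -2.97, -3.61 and -1.94, fell by 5.40 ± 0.72 (adjusted p = 4e-06), or 42.3-fold. Its ADE signals were low, at 10.8 to 60.3 intensity units, and the difference was -5.84 to -3.41 over 16 settings, called in all. Pou5f1 and this Nanog probe remained well above background on all 4 ADE arrays, as Sox2 did at -1.59, -1.71, -1.92 and -0.06, after a fall of 2.88 ± 0.69 (adjusted p = 0.0026). Utf1 fell by 2.35 ± 0.48 (adjusted p = 0.00062), to 2.67, 2.78, 2.71 and 4.37.

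ADE 4 had the highest level of all 4 genes. Its 7 anterior definitive endoderm markers summed to 269 against 328 to 381 on the other ADE arrays, and its 10 naive factors to 16.0 against 7.4 to 37.1; the part of these was not tested. Without ADE 4 the falls were -4.34, -5.84, -3.30 and -2.76, and all 4 were called.

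Sall4 rose by 1.20 ± 0.27 on probe A_51_P349087 (adjusted p = 0.0016), by 0.70 ± 0.19 on A_51_P145260 (adjusted p = 0.0065) and by 1.52 ± 0.38 on A_55_P2173546 (adjusted p = 0.0042). On the brightest, A_51_P349087, EpiSC read 3.12, 3.11 and 3.04 and ADE 4.40, 4.78, 3.88 and 4.11. The groups did not overlap on any of the 3 probes, and EpiSC had the lowest mean of the 9 groups on each. The call for A_51_P145260 was lost without EpiSC 1 (adjusted p = 0.054) and with median centring (adjusted p = 0.088). Lin28a read 4.42, 5.04, 4.34 and 4.80 in ADE, with an interval of -1.01 to 0.06 for the difference.

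nEnd minus ADE sets both endoderm cultures side by side, across array sets, so set and culture cannot be told apart. Of 9 probes 6 were called, 2 higher and 4 lower in nEnd, where 41.8% of all were. Pou5f1 was higher in nEnd by 1.62 ± 0.34 (adjusted p = 0.00047), and by 2.17 without ADE 4. The Mid arrays overlapped ADE 4, while every Late array lay above every ADE array. Sox2 was lower by 4.72 ± 0.58 (adjusted p = 4.3e-07; -1.29 with normexp), and Utf1 by 1.45 ± 0.41 (adjusted p = 0.0057). Sall4 was lower on A_51_P349087 (-0.80 ± 0.23) and A_55_P2173546 (-1.27 ± 0.33).

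The difference between the 2 inductions was tested directly, as (Diff minus ESC) minus (ADE minus EpiSC), which takes each difference within its own array set. Of 9 probes 3 were called, all higher, where 27.7% of all were. Pou5f1 fell less in Diff than in ADE, by 2.52 ± 0.60 (limma adjusted p = 0.0026), and Utf1, which fell in ADE, differed by 3.63 ± 0.70 (adjusted p = 0.0004). Lin28a rose in Diff and not in ADE, a difference of 4.02 ± 0.40 (adjusted p = 8.8e-08); it starts low in ESC and high in EpiSC. These 3 were called in all settings tried. For Sox2 and Nanog probe A_55_P2007703 the difference was -0.34 ± 1.01 and 0.69 ± 1.05 and not called. The inductions differ in starting cell, duration and medium at once.

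The other direct test, (Diff minus ESC) minus (NACL minus 2iL), called 3 of 9 probes, 1 higher and 2 lower, where 21.7% of all were. Nanog probe A_55_P2007703 fell more in Diff, by -4.12 ± 1.05 (adjusted p = 0.006), and so did Sox2, by -3.42 ± 1.01 (adjusted p = 0.016; not called without Diff 1, -2.53 and adjusted p = 0.067, or with median centring, adjusted p = 0.054). Lin28a rose in both and more in Diff, by 1.60 ± 0.40 (adjusted p = 0.0051). Its mean level started lower in ESC (0.78) than in 2iL (2.87), and ended at 4.32 in Diff and 4.82 in NACL. Pou5f1 was not called, at -1.62 ± 0.60 (adjusted p = 0.055), though 4 of 21 settings called it lower.

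**Figure D3:**
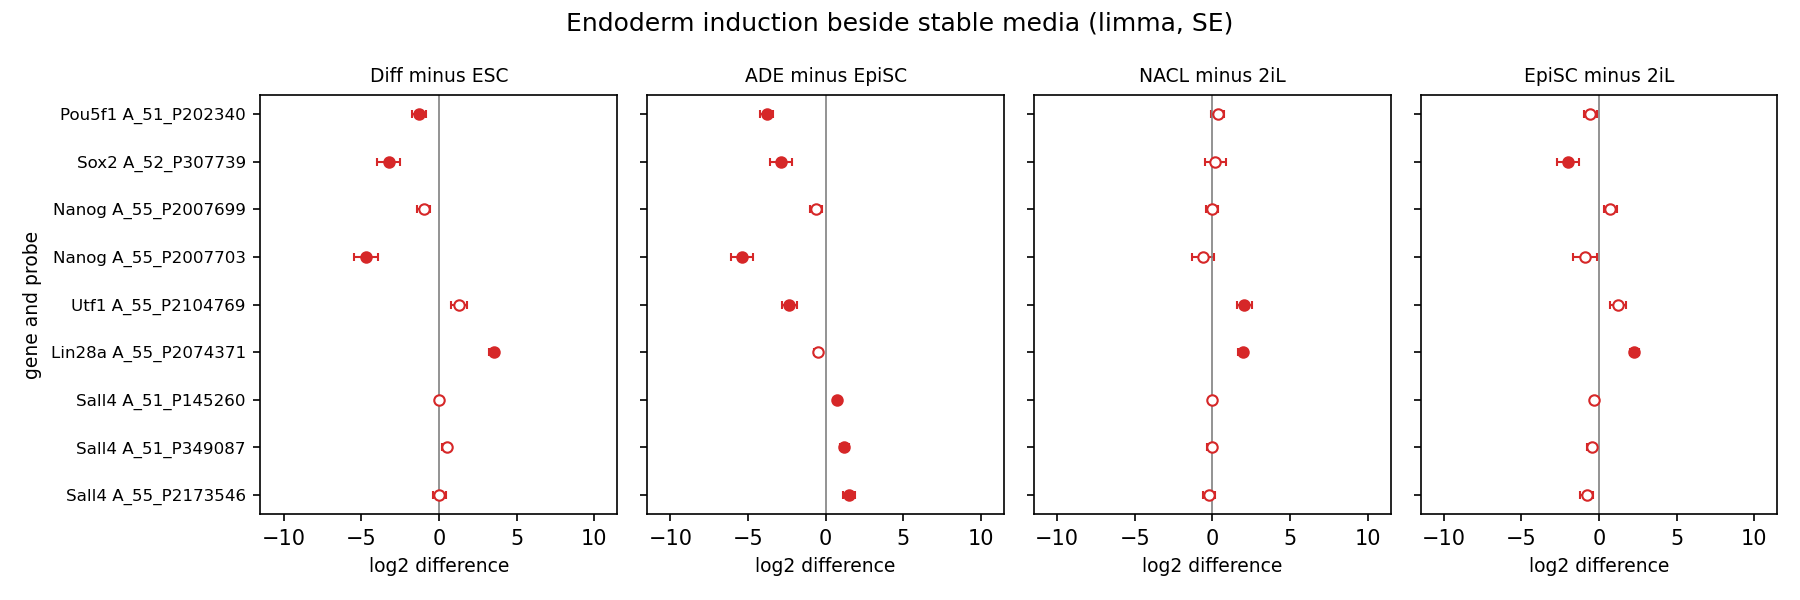
Log2 difference (x axis) with its SE for each of the 9 probes (y axis) in both endoderm inductions, in NACL against 2iL and in EpiSC against 2iL; filled points were called by limma. Pou5f1 lies at -1.28 in the first panel and -3.80 in the second, Lin28a at 3.55 and -0.48, and the Sall4 probes are called only in the second panel.

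The probes of a gene did not always give the same picture. Nanog probe A_55_P2007699 was well above background on all 29 arrays, within -3.02 to -0.32, and read -1.70, -1.64 and -0.32 in XEN and -0.98, -1.24 and -1.54 in ESC. Its levels correlated with those of A_55_P2007703 at -0.36 over the 29 arrays, a description across groups. The probe was called higher in Mid minus Diff (1.21 ± 0.42, adjusted p = 0.04), where the other Nanog probe fell, and in nEnd minus ADE (1.20 ± 0.33, adjusted p = 0.005). The first of these calls was kept in 6 of 16 settings. In Diff minus ESC, where the other Nanog probe fell, A_55_P2007699 was not called, though every Diff array lay below every ESC array. Its difference there was -1.58 to -0.50 over 16 settings, of which 3 called it lower. What part of the transcript each probe reads was not analysed here.

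The authors' value table has 1 Nanog row, under the ID of A_55_P2007699. Over the 29 arrays that row correlated at -0.41 with the scanner values of A_55_P2007699 and at 0.97 with those of A_55_P2007703. Its name thus was not borne out by the scanner values, and it was not used. For Pou5f1, Sox2, Utf1 and Lin28a the row and the probe of the same ID correlated at 0.97 to 0.99, and for Sall4 the row correlated at 0.87 with the probe of its ID, A_55_P2173546, and at 0.77 and 0.50 with the other probes. The 3 Sall4 probes correlated with each other at 0.76 to 0.84, and their group means spanned only 0.81 to 1.52, against 9.75 to 10.8 for Pou5f1, Sox2 and Nanog A_55_P2007703.

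**Figure D4:**
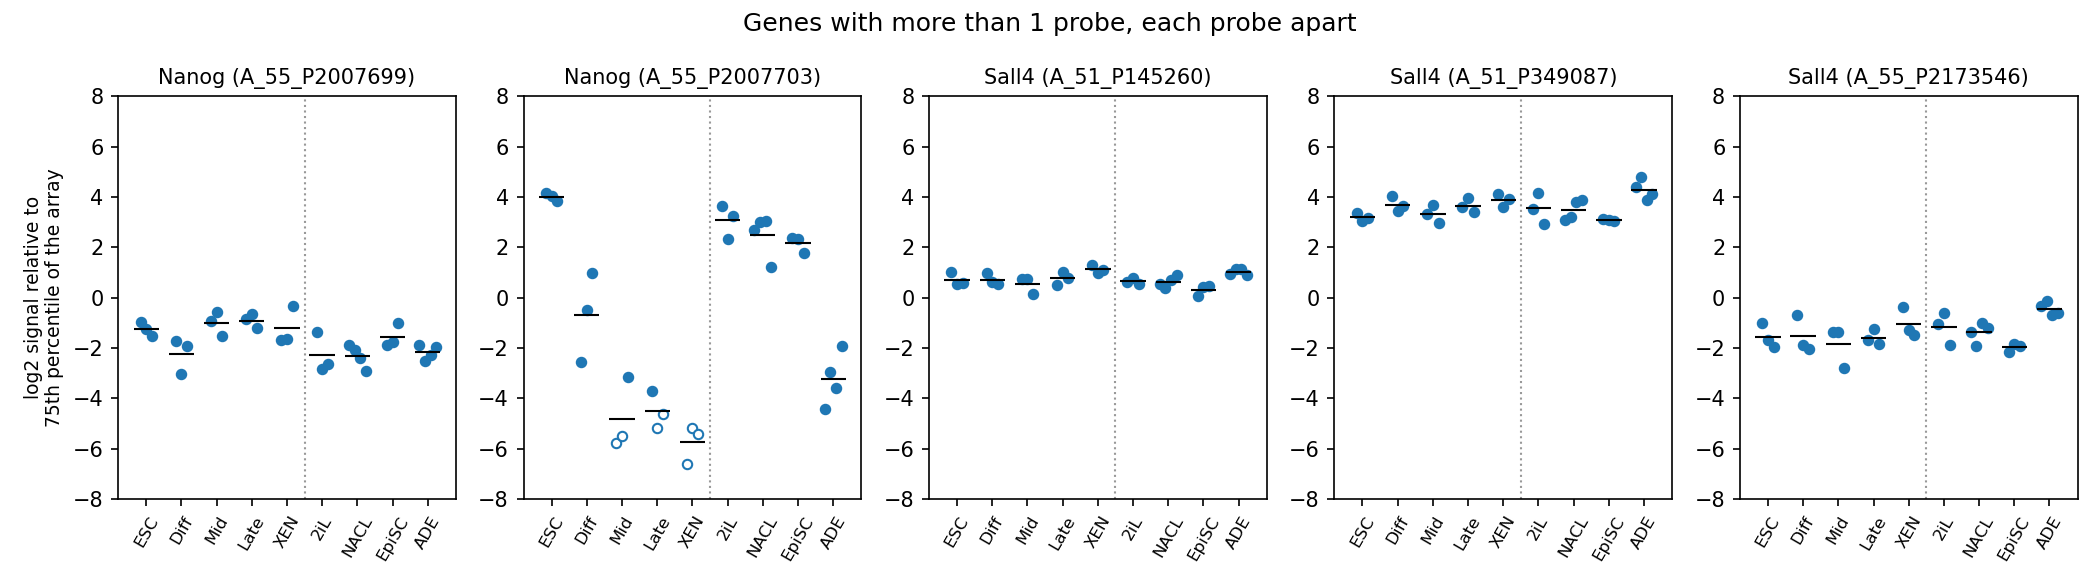
Levels of both Nanog probes and the 3 Sall4 probes on all 29 arrays (y axis: log2 signal relative to the 75th percentile of the array), by group; filled points are well above background, open points are not, and black bars are group means. Nanog A_55_P2007699 stays between -3.02 and -0.32 while A_55_P2007703 spans -6.61 to 4.16. By group mean, all 3 Sall4 probes are highest in ADE and XEN, ADE first on 2 of the 3, and lowest in EpiSC, with the groups between in differing order.

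The order of the groups differed between genes. Pou5f1 ran from ESC, NACL, 2iL, EpiSC and Diff, neighbours in that order overlapping, through Late and Mid to ADE and then XEN; Diff and Late, Late and Mid, and ADE and XEN did not overlap. Sox2 ran from NACL, 2iL and ESC, which overlapped, to EpiSC, Diff and ADE; ESC and EpiSC did not overlap. In Mid, Late and XEN Sox2 was not well above background except on Mid 3, which lay below every ADE array, so these groups have no order. Lin28a ran from XEN through EpiSC, Late, NACL, ADE and Diff to Mid, 2iL and ESC; XEN and EpiSC, Diff and Mid, and 2iL and ESC did not overlap. Utf1 ran from NACL and EpiSC through Diff, 2iL, ESC, ADE and Late to Mid, neighbours overlapping, and then XEN.

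Of 7 genes taken here as targets of Sox and Pou factors, not all through the joint site, 1 rose and 5 fell in Diff minus ESC. There 34% of all probes were called (median -1.99, against -0.27 over all probes). Fgf4, a growth factor gene whose enhancer is the textbook case of the joint site, fell by 3.98 ± 0.94 (adjusted p = 0.0018), and Lefty1, an inhibitor of Nodal, rose by 3.22 ± 1.09 (adjusted p = 0.025). In nEnd minus ESC 6 fell and 0 rose, where 43.5% of all were called (median -3.18, against -0.23). In NACL minus 2iL limma called 0, where only 4.53% of all probes were called. In ADE minus EpiSC 3 fell and 0 rose, where 26.7% were called (median -0.51, against -0.03).

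Of 10 naive transcription factors 6 fell and 1 rose in Diff minus ESC, 10 fell in EpiSC minus 2iL and limma called 0 in NACL minus 2iL, with medians of -2.56, -7.73 and 0.07. The shares of all probes called there were 34%, 30.8% and 4.53%. Of 16 general pluripotency genes 14 fell in nEnd minus ESC and 0 rose, where 43.5% of all were called (median -2.19), and in nEnd minus XEN 6 were higher and 2 lower, where 31.3% were. Of 15 proteins known to bind these factors, NuRD subunits among them, 9 fell and 2 rose in Diff minus ESC, where 34% of all probes were called (median -0.68, against -0.27 over all probes). In NACL minus 2iL, where 4.53% of all were called, limma called 0 of them. Of 11 family relatives 1 rose and 4 fell in Diff minus ESC, against the same 34% of all probes; Sall3 fell by 3.04 ± 0.85, with 2 of 3 Diff arrays well above background, and Sox3 was called higher from a level below background on all 3 ESC arrays.

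The 12 genes of the Lin28 and let-7 axis divided. In Diff minus ESC 4 rose and 4 fell, where 34% of all probes were called, led by Hmga2, a let-7 target, at 1.51 ± 0.55, and by Tut4, which adds uridines to let-7 precursors, at -2.15 ± 0.32. In XEN minus ESC 7 were higher and 1 lower, where 41.7% of all were called, led by Lin28b, the paralogue of Lin28a, at 3.40 ± 0.73 (adjusted p = 0.00054), and by Hmga1, a chromatin protein, at -1.14 ± 0.31. In nEnd minus XEN 7 were lower and 0 higher, where 31.3% of all were called, with Lin28b at -6.34 ± 0.63 and 1 of 3 Mid arrays well above background. In NACL minus 2iL, where 4.53% of all were called, Lin28b was the 1 gene called, at 2.45 ± 0.68 (adjusted p = 0.039), and in EpiSC minus 2iL, where 30.8% were called, it was the largest of 3 rises, at 4.03 ± 0.73.

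For each gene, the 3 genes whose levels were most like those of its brightest probe were found by Pearson correlation over the 29 arrays among 21407 probes. The arrays share groups, so these are descriptions. Pou5f1 was followed by Pou5f1-rs4 at 0.996, a related sequence of Pou5f1 whose signal cannot be told apart here from that of Pou5f1, then by Rps4l at 0.958 and Ddx43 at 0.948. Sox2 was followed by Ccdc160 at 0.980, Syk at 0.977 and Syt9 at 0.975, and Nanog probe A_55_P2007703 by Bmerb1 at 0.972, Stmn3 at 0.959 and Camk2b at 0.956. Utf1 was followed by Sult4a1 at 0.933, Sycp3 at 0.905 and F2rl1 at 0.904, Lin28a by Dusp3 at 0.887, Zyx at 0.874 and Rnf217 at 0.864, and Sall4 by Phf23 at 0.757, Fam53c at 0.756 and Txlna at 0.750.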

How the data were processed

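Scanner files of 29 single-colour arrays were used. Per the file headers, the deposited intensity of each spot had been background-corrected in Feature Extraction, version 11.0.1.1 in the first array set (slides 1 to 4, scan days 1 and 2) and 12.0.1.1 in the second (slides 5 and 6, scan day 3); the submitters' processing notes name version 9.1. The headers name build mm9. The authors also deposited a table of log2 values with 31982 rows, whose log base and background step are not stated; it was an alternative for the 5 of its 6 rows of these genes that followed the probe of their ID, a rule set after the values were seen.

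Outlier spots and controls were left out and spots of a probe averaged. Values are log2 signals with the 75th percentile of their array subtracted. Accessions were matched to symbols through RefSeq genes of GRCm38.p6, for names only; 27636 probes received 1 symbol. One limma 3.58.1 model (R 4.3.3, lmFit, contrasts.fit and eBayes) of 9 group means was fitted to the 36730 probes that some group had well above background on each of its arrays, with Benjamini-Hochberg adjustment within each of 14 comparisons at 0.05. For nEnd, Mid and Late were weighted equally, and their arrays entered as separate samples. Whether Late cultures descend from the Mid cultures was not settled. If they do, the SEs and p-values of the nEnd comparisons may be too small. "At least" folds replace a dim value by the array's lowest signal well above background where that is higher. The fit was tested on simulated data. Replicate numbers were not taken to pair the samples: of the pairs of groups checked, same-number correlations were all over 0.1 only for ESC and Late (0.107 to 0.297), which enter nEnd minus ESC together with Mid, where they were not; NACL and 2iL share cell lines, which were used as a block. The members and lists were chosen with earlier results of these data known. Named list genes are those with the largest called rise and fall of a list. Alternatives were median centring, quantile normalization, normexp with an offset of 50, the authors' table, no filter, 1 probe per gene, the arrays compared alone, blocks for replicate number, slide and scan day, the first scan day alone, and each array left out.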

Additional observations from a re-analysis of the deposited data

Results flagged for a closer look

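Utf1 on ADE 4, at 4.37, stood far above the other ADE arrays, at 2.67 to 2.78. In all 18 groups of 4 arrays and probes were tested this way, and chance flags about 1 in 20. Without ADE 4 Utf1 fell by 2.76 from EpiSC and was called.

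Effects of the inductions differed by limma's direct test. Between Diff minus ESC and ADE minus EpiSC, the difference was 4.02 for Lin28a, 2.52 for Pou5f1 and 3.63 for Utf1. Between Diff minus ESC and NACL minus 2iL it was 1.60 for Lin28a, -4.12 for Nanog probe A_55_P2007703 and -3.42 for Sox2. Their adjusted p-values were 8.8e-08, 0.0026, 0.0004, 0.0051, 0.006 and 0.016 in this order, and starting cells, durations and media differ between the arms.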

How the results depend on the processing

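Over the probes and alternatives tried no called difference changed sign; away from left-out arrays, 1022 values stayed on their side of the threshold, 25 gained a call and 25 lost one. Median centring gave 1 call in EpiSC minus 2iL, 0 in Late minus Mid and 8 in XEN minus ESC. The arrays compared alone gave 2 in EpiSC minus NACL, 0 in Late minus Mid, 3 in Mid minus Diff and 1 in NACL minus 2iL. No filter gave 1 in EpiSC minus 2iL. Slide as a block and the first scan day alone each gave 0 in Late minus Mid, where limma called 1. The authors' table, with 5 of the 9 probes, gave 4 in ADE minus EpiSC and 3 in Mid minus Diff, the same calls as the scanner values of those 5. It also gained calls: Utf1 in EpiSC minus 2iL (3 calls, adjusted p = 0.038), and in the direct tests Sall4 A_55_P2173546 against ADE minus EpiSC (4, adjusted p = 0.047) and Pou5f1 against NACL minus 2iL (3, adjusted p = 0.042).

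With an array left out, the calls ranged from 3 to 5 in Diff minus ESC, 4 to 5 in Mid minus Diff, 0 to 1 in Late minus Mid and in EpiSC minus NACL, 5 to 6 in XEN minus ESC, 3 to 4 in nEnd minus XEN, 6 to 7 in ADE minus EpiSC and in nEnd minus ADE, and 1 to 2 in NACL minus 2iL, EpiSC minus 2iL and ESC minus 2iL (2 without 2iL 1); nEnd minus ESC kept 5. The direct tests ranged from 3 to 5 against ADE minus EpiSC (5 without Diff 1) and 2 to 3 against NACL minus 2iL. Late minus Mid had 0 without Mid 3 or any 1 Late array, and EpiSC minus NACL 0 without EpiSC 3. With replicate number as a block 4 were called in Diff minus ESC and 4 in Mid minus Diff, where Nanog A_55_P2007699 lost its call (adjusted p = 0.053), and the other counts tested did not move; of the pairs of groups, only ESC and Late had every same-number pair correlated over 0.1. With cell line as a replicate block NACL minus 2iL kept 2. Signals near background limit the size of the Sox2 and Nanog falls.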
